A study of Homo sapiens with 16 samples.

Results

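The genes described here are 34 listed components of the protein-folding machinery of the endoplasmic reticulum (ER) and of the unfolded protein response (UPR), chosen by gene name. Of these, 33 were among the 10566 genes that passed the filter on low counts, out of 62703 in the count table. They were measured by 3′ tag RNA-seq (BRB-seq, which counts 1 tag near the 3′ end of each transcript) in 16 spheroid libraries of 3 prostate cancer cell lines. LNCaP is a hormone-responsive line from a lymph node metastasis, 22Rv1 is a castration-resistant line derived from a xenograft, and PC3 is a hormone-independent line from a bone metastasis. Cells of each line received 25 pmol of pooled siRNA by lipofection, either non-targeting (siCtrl) or against MED12 (siMED12), a subunit of the Mediator kinase module, and were then kept for 3 days in 2D and for 4 days as spheroids in low-attachment plates. There were 3 siCtrl and 3 siMED12 libraries of LNCaP, and 3 siCtrl and 2 siMED12 libraries each of 22Rv1 and of PC3, the latter numbered 1 and 3. All libraries came from transfected, unsorted spheroids of established lines, and each line stands as 1 genotype, so a difference between lines cannot be told apart from the history of these particular cultures. In such bulk samples, fewer cells of a type and less RNA per cell cannot be told apart.

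Secreted and membrane proteins enter the ER through the SEC61 translocon and are folded there by the HSP70-type chaperone BiP (HSPA5), the HSP90-type chaperone GRP94 (HSP90B1), the lectins calnexin and calreticulin, and the protein disulfide isomerases. Proteins that fail to fold are returned to the cytosol for degradation by the ER-associated degradation (ERAD) machinery. When unfolded protein accumulates, the sensors IRE1 (ERN1), PERK (EIF2AK3) and ATF6 start the UPR, in which spliced XBP1 and cleaved ATF6 raise the transcription of chaperone and ERAD genes. Prostate epithelium is a secretory tissue and relies on this machinery for the proteins it exports.

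Many of these genes share a promoter element through which ATF6 and XBP1 act. The ER stress response element ERSE, searched on both strands as CCAAT, 9 bases of any kind and CCACG, occurred in the promoters of 7 of the 31 members that have a RefSeq promoter entry (22.6%). It occurred in 27 of all 35116 RefSeq promoters of the same length (0.0769%), which run from 250 bases before to 50 bases after the transcript start. The shorter ERSE-II, searched as ATTGG, 1 base of any kind and CCACG, occurred in 3 of the 31 members (9.68%) and in 19 of all promoters (0.0541%). Members were counted as genes with a match in any of their promoter entries. All promoters were counted as single entries, with those of the members included, so the percentages are not in like units. The matches are given in the 5′ to 3′ direction of each gene with 5 flanking bases on each side, on GRCh38.p14, with the fixed letters of the element in capitals. Of the 10 genes with either element 8 were higher in 22Rv1 than in LNCaP, where 22% of all genes were. Of the 20 tested members with a promoter entry and neither element 8 were higher too. A match on the opposite strand reads CGTGG first.

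HSPA5, chr9:125241386-125241414, minus strand: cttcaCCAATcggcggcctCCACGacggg
HSP90B1, chr12:103930211-103930239, plus strand: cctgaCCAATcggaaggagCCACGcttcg
HSP90B1, chr12:103930316-103930344, plus strand: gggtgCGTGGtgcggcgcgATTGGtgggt
CALR, chr19:12938379-12938407, plus strand: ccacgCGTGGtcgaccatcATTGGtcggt
CANX, chr5:179698773-179698801, plus strand: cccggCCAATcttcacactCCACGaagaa
CRELD2, chr22:49918549-49918577, plus strand: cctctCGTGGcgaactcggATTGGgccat
PDIA6, chr2:10812848-10812876, minus strand: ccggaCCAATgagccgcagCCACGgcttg
XBP1, chr22:28800598-28800626, minus strand: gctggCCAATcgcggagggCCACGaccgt

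HSP90B1 held the element on both strands, 194 to 176 bases and 89 to 71 bases before the start. In HSPA5 it lay 66 to 48 bases before the start, and in XBP1 52 to 34 bases before it. The 4 ERSE-II matches follow, 2 of them in HYOU1.

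HYOU1, chr11:119057375-119057395, minus strand: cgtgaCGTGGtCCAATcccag
HYOU1, chr11:119057269-119057289, minus strand: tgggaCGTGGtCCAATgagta
SDF2L1, chr22:21642109-21642129, plus strand: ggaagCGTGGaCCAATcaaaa
HERPUD1, chr16:56932020-56932040, plus strand: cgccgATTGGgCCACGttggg

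Another element, the UPRE searched as TGACGTGG, occurred in 2 of the 31 members (6.45%) and in 0.729% of all promoters, counted in the same unlike units. In HYOU1 it overlapped the first of the ERSE-II matches, and the other member was TXNDC5. PDIA3, DERL1 and DERL3 had no promoter entry.

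The libraries held between 479118 and 993807 counts, so that 3 counts, taken as the limit of a count of 0, correspond to a level of 3.15 to 6.22 CPM (counts scaled to a common library size). MED12 itself had 5 to 22 counts per library. In LNCaP it stood at 9.94, 12.9 and 11.7 CPM in siCtrl and at 6.99, 6.67 and 10.3 CPM in siMED12. In 22Rv1 the siCtrl libraries had 23.4, 16.7 and 19.2 CPM and the siMED12 libraries 7.42 and 8.98 CPM, without overlap. In PC3 the siCtrl libraries had 28.4, 8.41 and 18.8 CPM and the siMED12 libraries 15.8 and 14.5 CPM, inside the control range. The fall did not pass the threshold in LNCaP, 22Rv1 or PC3 (log2 fold changes -0.50, -1.28 and -0.22, edgeR adjusted p 0.878, 0.175 and 0.987). With so few counts, these libraries measure the MED12 level with little precision. The study itself describes the knockdown in its spheroids as highly efficient. The summed level of 10 PC3 markers was 87.4 to 166 CPM in LNCaP siCtrl, 182 to 219 CPM in 22Rv1 siCtrl and 3852 to 4337 CPM in PC3 siCtrl. Replicate 3 of 22Rv1 siMED12 held 18 PC3-restricted genes at 4.18% of their PC3 level, against at most 1.04% in any other LNCaP or 22Rv1 library, and replicate 3 of PC3 siMED12 held 2 LNCaP-restricted genes at 3.13% of their LNCaP level. These are called carried-over counts below, but whether they came from another line was not tested. Subtracting them changed none of the counts of members called.

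In siCtrl spheroids 9 of the 11 chaperones and lectins among the members were higher in 22Rv1 than in both other lines, the exceptions being CALR and DNAJB9. Between 22Rv1 and LNCaP, 22 of the 33 genes passed an adjusted p of 0.05 in edgeR's quasi-likelihood test, adjusted over all genes, 19 of them higher in 22Rv1 and 3 lower. Among all 10566 genes 43.2% were called in this comparison, 22% higher and 21.2% lower. The median log2 difference of the 33 genes was 0.62, against 0 for all genes. Between PC3 and 22Rv1, 21 of the 33 genes passed, 4 higher in PC3 and 17 lower, where 54.9% of all genes were called, 28.7% higher and 26.1% lower. Between PC3 and LNCaP, 12 passed, 8 higher in PC3 and 4 lower, where 54.7% of all genes were called. The members called between PC3 and LNCaP were thus a smaller share (12 of 33) than the background. In all, 19 of the 33 genes had their highest siCtrl mean in 22Rv1, 9 in PC3 and 5 in LNCaP. Together the members took up 0.462 to 0.496% of the counts in LNCaP siCtrl libraries, 0.735 to 1.01% in 22Rv1 and 0.581 to 0.618% in PC3.

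**Figure D1:**
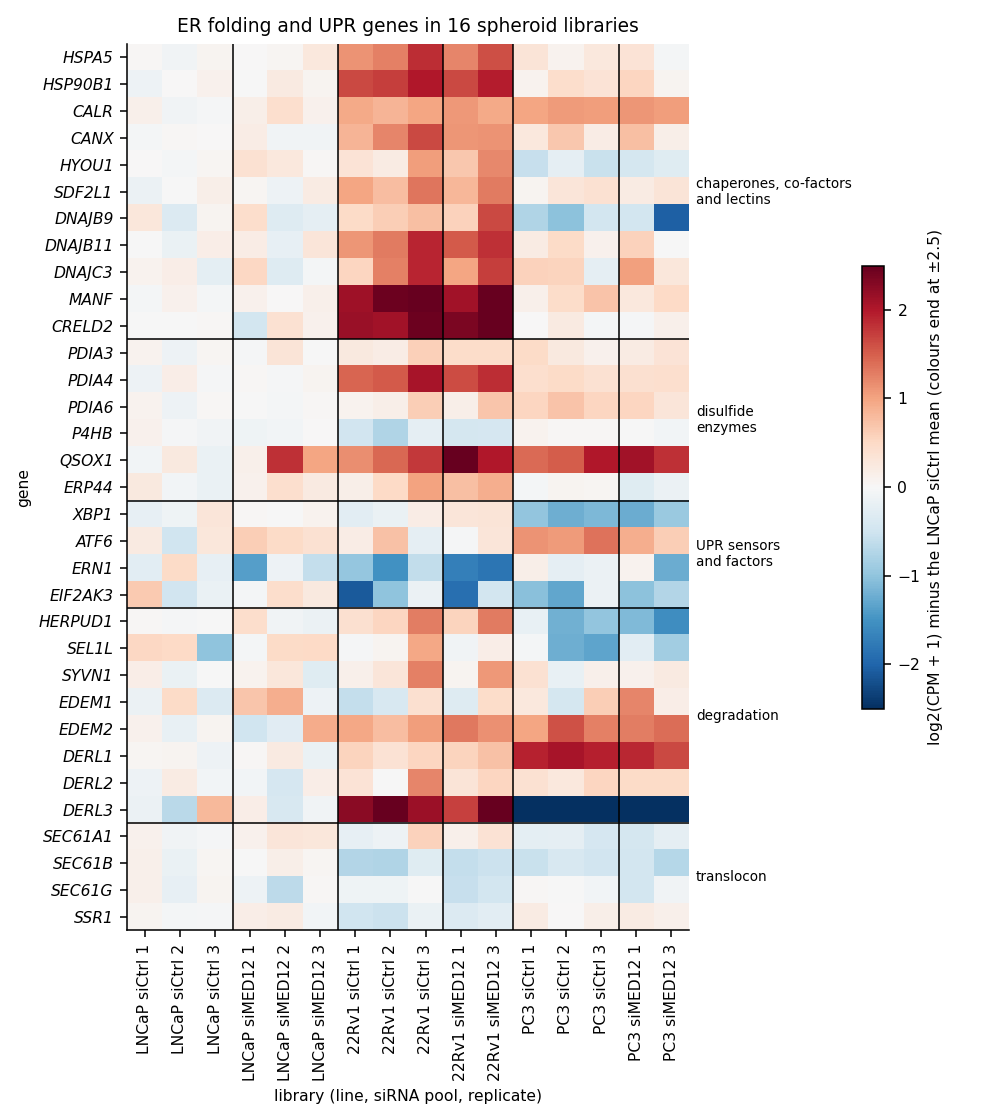
Level of each of the 33 genes (rows, grouped by role) in each of the 16 libraries (columns), as log2(CPM + 1) minus the mean of the LNCaP siCtrl libraries, red for higher and blue for lower. The 22Rv1 columns are red for most chaperones in siCtrl and siMED12 alike, DERL1 is red in all PC3 columns, and DERL3 had 0 counts in all PC3 libraries.

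Of the 11 chaperones, co-chaperones and lectins, 10 were higher in 22Rv1 than in LNCaP and 10 were lower in PC3 than in 22Rv1. MANF (chr3:51385291-51389397), a secreted ER-resident factor that binds BiP, had 114, 127 and 114 CPM in the LNCaP siCtrl libraries, 515, 654 and 784 CPM in 22Rv1 and 130.3, 163 and 195 CPM in PC3. The 22Rv1 libraries lay above every library of the other lines. MANF was 5.48-fold higher in 22Rv1 than in LNCaP (log2 fold change 2.45 ± 0.16 SE, adjusted p = 9.11e-14), and 4.01-fold lower in PC3 than in 22Rv1 (adjusted p = 1.79e-12). Its smaller difference between PC3 and LNCaP (0.45, adjusted p = 0.0329) lost the call on leaving out LNCaP siCtrl replicate 1 or 3 or PC3 siCtrl replicate 2 or 3, with an adjusted p of up to 0.174.

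CRELD2 (chr22:49918167-49927540), a secreted ER stress-inducible protein, had 82.8, 83.1 and 84.8 CPM in LNCaP, 377, 361 and 459 CPM in 22Rv1 and 83.9, 97.8 and 80.9 CPM in PC3. LNCaP and PC3 overlapped, and 22Rv1 stood apart from both. The log2 difference was 2.26 ± 0.16 (SE) from LNCaP to 22Rv1 (adjusted p = 5.97e-13) and -2.18 ± 0.16 from 22Rv1 to PC3 (adjusted p = 3.59e-13), while PC3 and LNCaP differed by 0.07 with a 95% interval of -0.31 to 0.46.

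BiP (HSPA5, chr9:125234853-125241382), given here for its central role, had 212, 195 and 218 CPM in LNCaP siCtrl, 454, 498 and 756 CPM in 22Rv1 and 261, 222 and 251 CPM in PC3. It was 2.73-fold higher in 22Rv1 than in LNCaP (adjusted p = 7.33e-09). The difference between PC3 and LNCaP was 0.23 on the log2 scale (adjusted p = 0.261, 95% interval -0.12 to 0.57). GRP94 (HSP90B1) differed by 1.80, the BiP co-chaperones DNAJB11 and DNAJC3 by 1.48 and 1.39, calnexin (CANX) by 1.29, SDF2L1 by 1.05 and the BiP-related chaperone HYOU1 by 0.60 on the log2 scale between LNCaP and 22Rv1, all called. The co-chaperone DNAJB9 was the one member of this group not called between these lines (0.62, adjusted p = 0.128).

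Calreticulin (CALR), the soluble counterpart of calnexin, had another pattern. It stood at 422, 362 and 378 CPM in LNCaP, 747, 699 and 772 CPM in 22Rv1 and 769, 815 and 795 CPM in PC3. It was higher than in LNCaP in both other lines (0.93 in 22Rv1 and 1.03 in PC3 on the log2 scale), and 22Rv1 and PC3 differed by 0.10 (adjusted p = 0.456).

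The 6 disulfide enzymes with counts were split. PDIA4 was 1.70 higher on the log2 scale in 22Rv1 than in LNCaP (adjusted p = 6.25e-12), PDIA3 0.35 and ERP44 0.62. Leaving out LNCaP siCtrl replicate 2 lost the PDIA3 call, and leaving out LNCaP siCtrl replicate 3 that of ERP44. P4HB, the PDI that is also a subunit of collagen prolyl hydroxylase, went the other way, at 749, 680.3 and 647 CPM in LNCaP, 498, 408 and 594 CPM in 22Rv1 and 733, 705 and 708 CPM in PC3. It was lower in 22Rv1 than in LNCaP (-0.46 ± 0.12, adjusted p = 0.00209) and higher in PC3 than in 22Rv1 (0.51 ± 0.12, adjusted p = 0.000478). PDIA6 was higher in PC3 than in LNCaP (0.60) and was not called between 22Rv1 and LNCaP (0.31, adjusted p = 0.0838).

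QSOX1 (chr1:180154869-180204030), a sulfhydryl oxidase of the secretory pathway, was lowest in LNCaP, with 18.2, 22.9 and 17.0 CPM against 44.2, 53.5 and 68.0 CPM in 22Rv1 and 52.9, 56.8 and 79.5 CPM in PC3. The LNCaP libraries did not overlap with those of the other lines. The log2 difference was 1.52 ± 0.33 (SE) from LNCaP to 22Rv1 (adjusted p = 0.000408) and 1.69 ± 0.32 from LNCaP to PC3 (adjusted p = 4.48e-05). TXNDC5, the seventh listed disulfide enzyme, had 0 counts in all 16 libraries. In Gencode 44 it shares 2658 of its 4361 exon bases (60.9%) with the readthrough gene BLOC1S5-TXNDC5 on the same strand, which also had 0 counts in every library, so its level was not measurable here.

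The UPR sensors and XBP1 did not follow the chaperones. XBP1 (chr22:28794555-28800597), the transcription factor spliced by IRE1, had 262, 281 and 373 CPM in LNCaP, 252, 269 and 343 CPM in 22Rv1 and 152, 129 and 139 CPM in PC3. LNCaP and 22Rv1 overlapped and PC3 lay below both. PC3 was lower than LNCaP by -1.14 ± 0.15 (adjusted p = 1.21e-07) and than 22Rv1 by -1.05 ± 0.15 (adjusted p = 6.54e-07), while 22Rv1 and LNCaP differed by -0.09 (95% interval -0.38 to 0.19). These are counts of all XBP1 transcripts, since a 3′ tag does not tell the spliced from the unspliced form.

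ATF6 was higher in PC3, at 50.3, 48.4 and 59.2 CPM, than in LNCaP (26.5, 15.8 and 27.6 CPM) and 22Rv1 (26.0, 38.4 and 19.2 CPM). PC3 exceeded 22Rv1 by 0.94 ± 0.25 (adjusted p = 0.00184) and LNCaP by 1.14 ± 0.25 (adjusted p = 0.000285). ERN1 and EIF2AK3 were near the limit of counting, with 3 to 16 and 2 to 15 counts per library, and passed in no comparison of the lines. ERN1 was at 13.3, 22.9 and 13.8 CPM in LNCaP and 7.81, 5.01 and 10.3 CPM in 22Rv1 (-1.05, adjusted p = 0.0518).

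Of the 8 ERAD genes, DERL1 and DERL3, both members of the Derlin family of the ERAD membrane channel, differed in the place of PC3, which was highest for DERL1 and lowest for DERL3. DERL1 had 84.5, 85.9 and 74.2 CPM in LNCaP, 119.7, 105 and 119 CPM in 22Rv1 and 311, 342 and 316 CPM in PC3. It was 3.99-fold higher in PC3 than in LNCaP (2.00 ± 0.15, adjusted p = 3.01e-13) and 2.80-fold higher than in 22Rv1 (1.49 ± 0.14, adjusted p = 9.67e-11). DERL3 had 6.63, 4.30 and 13.8 CPM in LNCaP, 39.0, 53.5 and 35.9 CPM in 22Rv1 and 0 counts in all 5 PC3 libraries. It was 4.68-fold higher in 22Rv1 than in LNCaP (2.23 ± 0.37, adjusted p = 1.43e-05), and the log2 difference was 2.93 without LNCaP siCtrl replicate 3. DERL3 passed the filter on low counts only through its 22Rv1 libraries, so its calls against 22Rv1 give no separate support. DERL3 is counted among the 19 members higher in 22Rv1 than in LNCaP and the 17 lower in PC3 than in 22Rv1. Against 3 counts per PC3 library it was at least 11.31-fold higher in 22Rv1 and at least 2.18-fold higher in LNCaP. The LNCaP bound rested on replicate 3 (13 counts, against 4 and 3 in replicates 1 and 2) and was 1.44-fold without it. DERL2, the other Derlin, was called in no comparison.

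HERPUD1, a UPR-induced ERAD scaffold, was ordered 22Rv1 over LNCaP over PC3, with 82.8, 78.8 and 80.6 CPM in LNCaP, 107, 117.0 and 198 CPM in 22Rv1 and 71.0, 34.7 and 40.5 CPM in PC3. The lower level in PC3 than in LNCaP (-0.74 ± 0.27, adjusted p = 0.0224) lost the call without PC3 siCtrl replicate 2 (-0.51, adjusted p = 0.154), without PC3 siCtrl replicate 3 (-0.64, adjusted p = 0.0823) and without LNCaP siCtrl replicate 1 (-0.72). EDEM2, a mannose-trimming ERAD factor, had 28.2, 22.9 and 27.6 CPM in LNCaP, 52.1, 45.1 and 55.2 CPM in 22Rv1 and 52.9, 81.0 and 63.6 CPM in PC3, and PC3 exceeded LNCaP by 1.34 ± 0.27 (adjusted p = 8.99e-05). The ubiquitin ligase SYVN1 was higher in 22Rv1 than in LNCaP (0.68, adjusted p = 0.0401) and its partner SEL1L was lower in PC3 than in 22Rv1 (-1.25, adjusted p = 0.0159). The SYVN1 call was lost without LNCaP siCtrl replicate 2 or 3 or 22Rv1 siCtrl replicate 3 and in DESeq2 and limma, and the SEL1L call without 22Rv1 siCtrl replicate 3 or PC3 siCtrl replicate 2 or 3 and in DESeq2. EDEM1 was called in no comparison.

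Of the 4 translocon genes, 2 were lower in 22Rv1 than in LNCaP and 0 higher, where 21.2% of all genes were lower and 22% higher. With 4 genes this count is descriptive. SEC61B, the beta subunit, had 341, 279 and 324 CPM in LNCaP, 189, 187 and 254 CPM in 22Rv1 and 213, 237 and 225 CPM in PC3. LNCaP lay above all libraries of both other lines (22Rv1 -0.58 ± 0.14, adjusted p = 0.000824, and PC3 -0.48 ± 0.13, adjusted p = 0.00279). SSR1, of the translocon-associated TRAP complex, was lower in 22Rv1, at 129, 125 and 162 CPM, than in LNCaP (192, 176 and 180.2 CPM) and PC3 (212, 183 and 202 CPM). That difference from LNCaP (-0.39 ± 0.14, adjusted p = 0.0277) lost the call on leaving out any siCtrl library of these lines except 22Rv1 replicate 3 (adjusted p 0.0544 to 0.107). The SSR1 call was also lost in DESeq2 and with all genes of at least 1 count. SEC61A1, the channel itself, was lower in PC3 than in 22Rv1 (-0.43, adjusted p = 0.0166, lost without PC3 siCtrl replicate 3 or 22Rv1 siCtrl replicate 3), and SEC61G was called in no comparison. The members called in none of the siCtrl comparisons were ERN1, EIF2AK3, EDEM1, DERL2 and SEC61G.

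**Figure D2:**
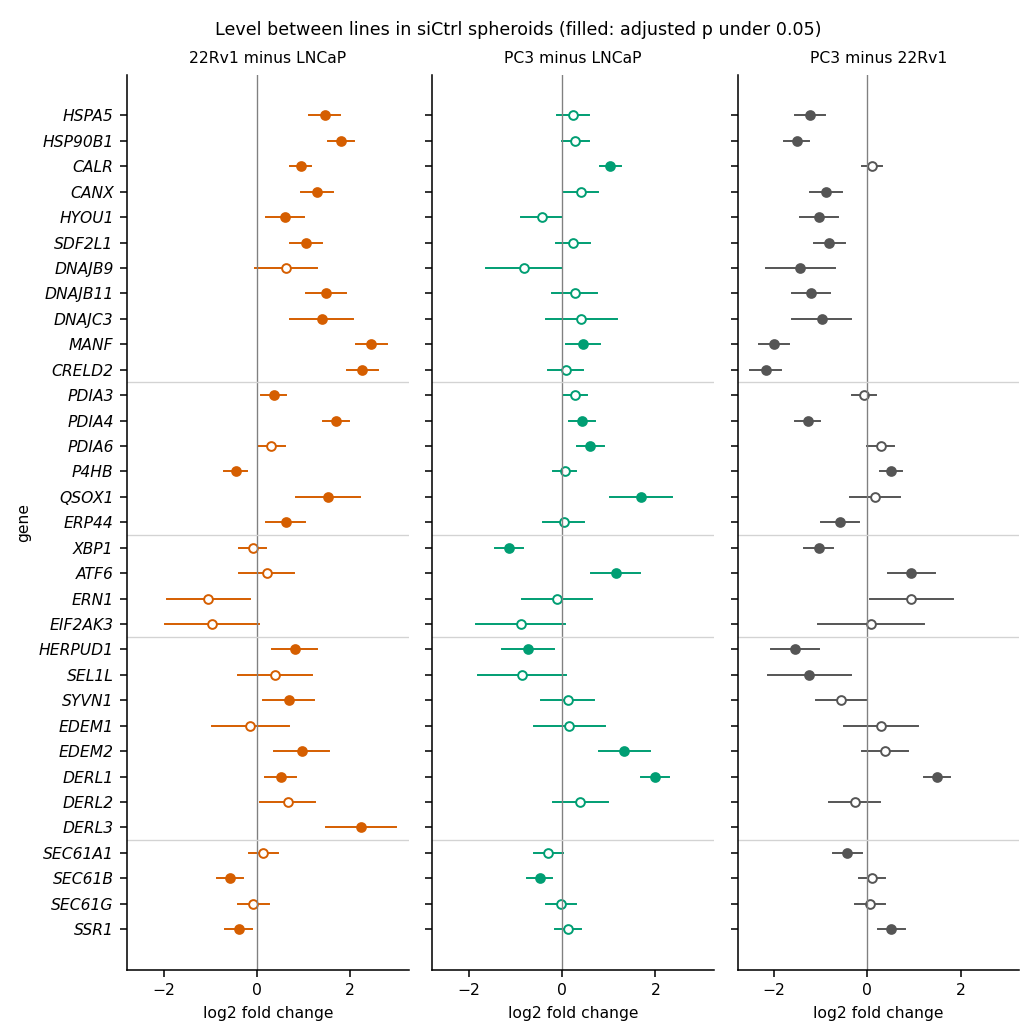
Log2 fold change between the siCtrl groups of each pair of lines (x axis) for each gene (rows), with its 95% interval as a line and a filled point where the adjusted p was under 0.05. The chaperones at the top lie to the right of 0 in 22Rv1 minus LNCaP and, but for CALR, to the left in PC3 minus 22Rv1, where DERL1 is farthest to the right at 1.49. DERL3 is left out of the PC3 panels because it had 0 counts there.

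The genes whose promoters hold an ERSE or ERSE-II match were described beside those that hold neither. Of the 10 with a match, 8 were higher in 22Rv1 than in LNCaP and 0 lower, with a median log2 difference of 0.99, and 8 were lower in PC3 than in 22Rv1 and 0 higher, with a median of -1.04. Of the 20 tested genes with a promoter entry and no match, 8 were higher and 3 lower in 22Rv1 than in LNCaP, with a median of 0.50, and 3 were higher and 8 lower in PC3 than in 22Rv1, with a median of -0.11. Among all genes 22% were higher and 21.2% lower in the first comparison, and 28.7% higher and 26.1% lower in the second. MANF and PDIA4 were among those with no match and were among the genes with the largest differences. Whether the elements have a part in these levels was not tested. The genes with a match that did not pass were XBP1 and PDIA6 between 22Rv1 and LNCaP and CALR and PDIA6 between PC3 and 22Rv1.

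**Figure D3:**
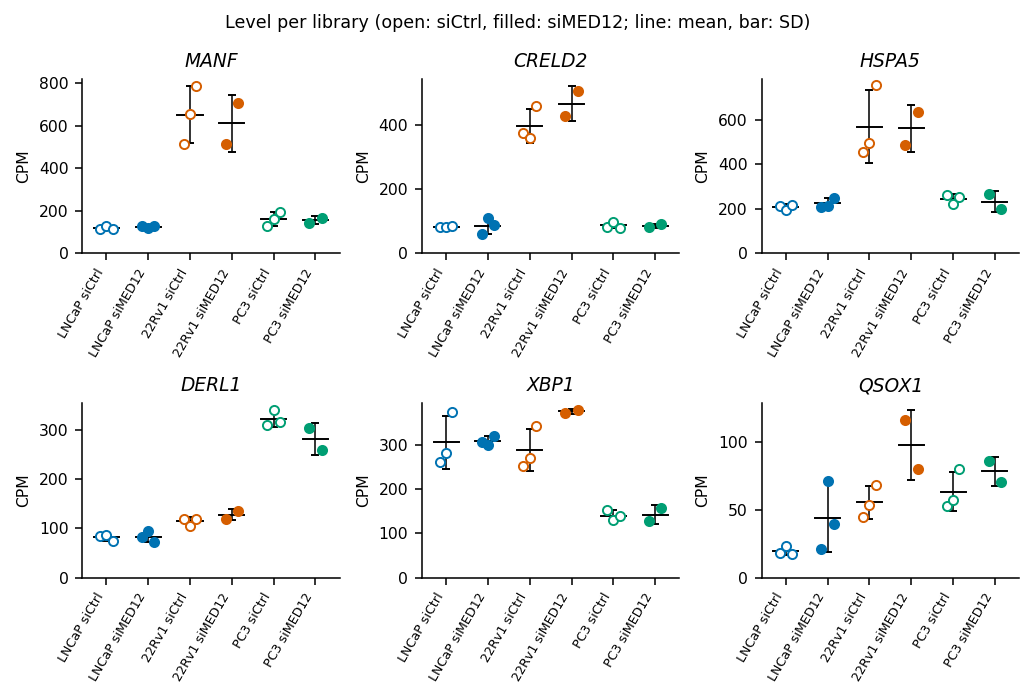
CPM of 6 of the genes in every library, by line and siRNA pool, with the mean as a horizontal line and the SD as a bar (n = 3 or 2). MANF, CRELD2 and HSPA5 are highest in both 22Rv1 groups, DERL1 is highest and XBP1 lowest in PC3, and the siMED12 mean of QSOX1 lies above the siCtrl mean in each line.

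Within 22Rv1 siCtrl, 1 library stood apart for these genes. Replicate 3 was the highest of the 3 replicates for 30 of the 33 members, where 33.6% of all tested genes were highest in it, and the median log2 difference from the mean of replicates 1 and 2 was 0.46, against 0 for all genes. In the other groups of 3, no replicate was the highest for more than 15 of the 33 members. The excess covered all 11 chaperones and all 6 disulfide enzymes and was largest for EIF2AK3 (1.15), SYVN1 (1.03), DERL2 (1.02), DNAJC3 (0.96) and SEL1L (0.89). The EIF2AK3 value rested on 2, 4 and 10 counts in replicates 1, 2 and 3, near the limit of counting. SEL1L had 12, 10 and 25 counts. HYOU1, for example, had 111 and 100.3 CPM in replicates 1 and 2 and 182 CPM in replicate 3, and SYVN1 56.0 and 63.5 CPM against 124 CPM. ATF6 (-0.65) and DERL3 (-0.33) were lower in replicate 3. These genes were named after their values were seen.

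The same replicate number was also the higher in 22Rv1 siMED12, where 29 of the 33 members were above replicate 1 (50.5% of all genes), with a median difference of 0.24. HERPUD1 had 119 and 201 CPM there, and SYVN1 54.1 and 110.3 CPM. Other ER genes did not all share the excess of siCtrl replicate 3. It was the highest library for 13 of 18 further ERAD genes, 12 of 20 further translocon and signal peptidase genes and 15 of 24 carriers between ER and Golgi, but for 4 of 14 further disulfide enzymes, 4 of 11 oligosaccharyltransferase genes and 2 of 11 further chaperones and prolyl isomerases. Replicate 3 of 22Rv1 siCtrl had 802267 counts and 14665 genes detected, mitochondrial genes took up 6.45% of its counts against 5.41 and 7.67% in replicates 1 and 2, and its PC3-restricted genes stood at 0.534% of their PC3 level. Whether these values have a part in its ER levels was not tested.

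Leaving this library out, 18 of the 33 genes were called between 22Rv1 and LNCaP, and the median fell from 0.62 to 0.43 on the log2 scale. The calls lost were those of HYOU1, PDIA3, ERP44, HERPUD1 and SYVN1, and between PC3 and 22Rv1 those of DNAJC3, ERP44, SEL1L and SEC61A1, with the median there at -0.18 in place of -0.56. In each comparison 1 gene was newly called without it, EIF2AK3 between 22Rv1 and LNCaP and PDIA6 between PC3 and 22Rv1. MANF (2.31), CRELD2 (2.15) and HSPA5 (1.20, the lowest over 15 settings) kept their calls. Of the 10 chaperones and lectins called between 22Rv1 and LNCaP, HYOU1 was the one that lost its call without replicate 3.

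**Figure D4:**
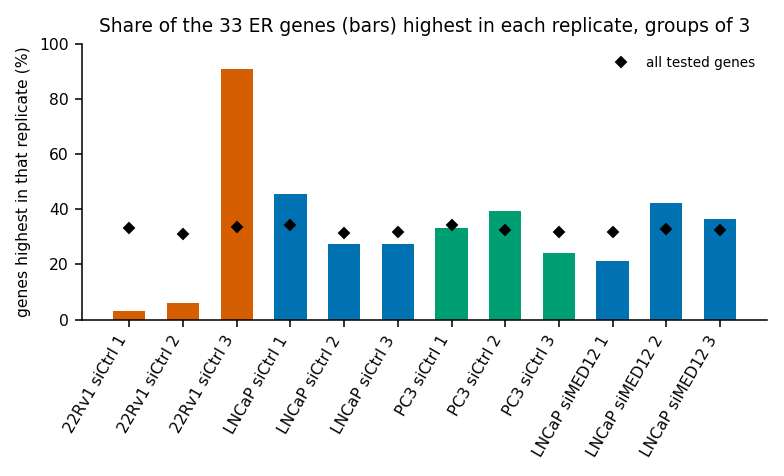
Percentage of the 33 genes (bars, coloured by line) and of all tested genes (diamonds) that were highest in each replicate of the groups with 3 libraries. The bar of 22Rv1 siCtrl replicate 3 stands at 30 of 33 genes, and the diamonds lie between 31.0 and 34.4% throughout.

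After siMED12 none of the 33 genes passed the threshold in any single line. In LNCaP 44 of all genes were called (0.416%), in 22Rv1 194 (1.84%) and in PC3 0, and the members' count was 0 in each, with the smallest adjusted p at 0.183, 0.121 and 0.974. DESeq2 and limma also called 0 members in each line. At an unadjusted p under 0.05 there were 1 member in LNCaP (7.34% of all genes), 3 in 22Rv1 (11.7%) and 0 in PC3 (4.99%). The median log2 fold change of the members was 0.08 in LNCaP, 0.04 in 22Rv1 and -0.01 in PC3 (32 members, since DERL3 had no counts), against 0.00, 0.01 and -0.04 for all genes. For HSPA5 the 95% intervals ran from -0.23 to 0.46 in LNCaP, -0.36 to 0.31 in 22Rv1 and -0.43 to 0.34 in PC3, and for MANF from -0.30 to 0.46, -0.42 to 0.22 and -0.49 to 0.33. A change of 1 log2 unit lies outside each of these intervals for HSPA5 and MANF, but inside those of DNAJB9 in 22Rv1 (-0.05 to 1.18) and PC3 (-1.27 to 0.97) and of DNAJC3 in PC3 (-0.39 to 1.18).

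QSOX1 was the one member called when the effect was averaged over the lines. In LNCaP it had 18.2, 22.9 and 17.0 CPM in siCtrl (11, 16 and 16 counts) and 21.0, 70.7 and 39.1 CPM in siMED12 (15, 53 and 34 counts), so the lowest siMED12 library lay within the control range. In 22Rv1 it had 44.2, 53.5 and 68.0 CPM in siCtrl and 116 and 79.5 CPM in siMED12, without overlap. In PC3 it had 52.9, 56.8 and 79.5 CPM and 85.7 and 70.5 CPM, which overlapped. In 22Rv1 the summed level of the 10 PC3 markers was 182 to 219 CPM in siCtrl and 218 and 441 CPM in siMED12. Of the 10, 3 were called higher, where 105 of all 10566 genes were. Each of the 3 was above every siCtrl library in siMED12 replicate 1 too, where PC3-restricted genes stood at 0.35% of their PC3 level. ANXA3, one of them, was at 3.18 CPM there, the level of 3 counts. Of the markers not called, CAV2 and ANXA1 were above every siCtrl library in replicate 1, and VIM and LGALS1 were below. CAV1 had 16.9, 13.4 and 14.1 CPM in siCtrl and 35.0 and 60.3 CPM in siMED12. With counts subtracted as if carried over, the QSOX1 effect in 22Rv1 was 0.83 on the log2 scale. The source of the PC3 marker counts was not tested. The log2 fold changes were 1.18 ± 0.35 (SE, adjusted p = 0.183), 0.83 ± 0.27 (adjusted p = 0.121) and 0.35 ± 0.29 (adjusted p = 0.978). Averaged over the 3 lines, QSOX1 rose by 0.78 ± 0.17 on the log2 scale, or 1.72-fold (adjusted p = 0.0377), where 28 of all genes were called (0.265%), 6 of them higher (0.0568%).

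The QSOX1 call was not stable. It was kept in 12 of 24 alternative settings and lost in limma (0.68, adjusted p = 0.111) and on leaving out any of 11 of the 16 libraries, with log2 values of 0.62 to 0.89 and adjusted p-values of up to 0.297. The value in LNCaP alone ran from 0.68 without siMED12 replicate 2 to 1.501 without siMED12 replicate 1 (adjusted p = 0.0188). With libraries of the same replicate number taken as pairs, a replicate block, QSOX1 was called in LNCaP (1.17, adjusted p = 0.0403), and the mean effect had an adjusted p of 0.00589.

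The members next in order of unadjusted p did not pass. In LNCaP these were CALR, with 422, 362 and 378 CPM against 429, 518 and 419.6 CPM (0.23 ± 0.12, adjusted p = 0.672), and ERN1, with 13.3, 22.9 and 13.8 CPM against 5.595, 14.7 and 10.3 CPM (-0.67 ± 0.40, adjusted p = 0.759). In both genes the groups overlapped. In 22Rv1 XBP1 had 252, 269 and 343 CPM in siCtrl and 371 and 379.7 CPM in siMED12 (0.38 ± 0.15, adjusted p = 0.269). SEC61G, the gamma subunit of the translocon, had 130.1, 130.4 and 139 CPM in siCtrl and 93.3 and 101 CPM in siMED12 of 22Rv1 (-0.45 ± 0.19, adjusted p = 0.285).

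In PC3 the 3 smallest unadjusted p-values were those of EDEM1, HERPUD1 and ATF6, with adjusted p-values of 0.974 to 0.975. EDEM1 had 24.5, 14.7 and 31.8 CPM in siCtrl and 48.8 and 22.8 CPM in siMED12 (0.73 ± 0.38), and the value rested on siMED12 replicate 1, without which it was -0.01. HERPUD1 had 71.0, 34.7 and 40.5 CPM against 36.9 and 27.0 CPM (-0.55 ± 0.38), and ATF6 50.3, 48.4 and 59.2 CPM against 43.5 and 35.3 CPM (-0.38 ± 0.27). The siMED12 and siCtrl libraries did not overlap for 1 member in LNCaP, 6 in 22Rv1 and 6 in PC3, where 12.6%, 26.6% and 20.7% of all genes did not overlap.

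**Figure D5:**
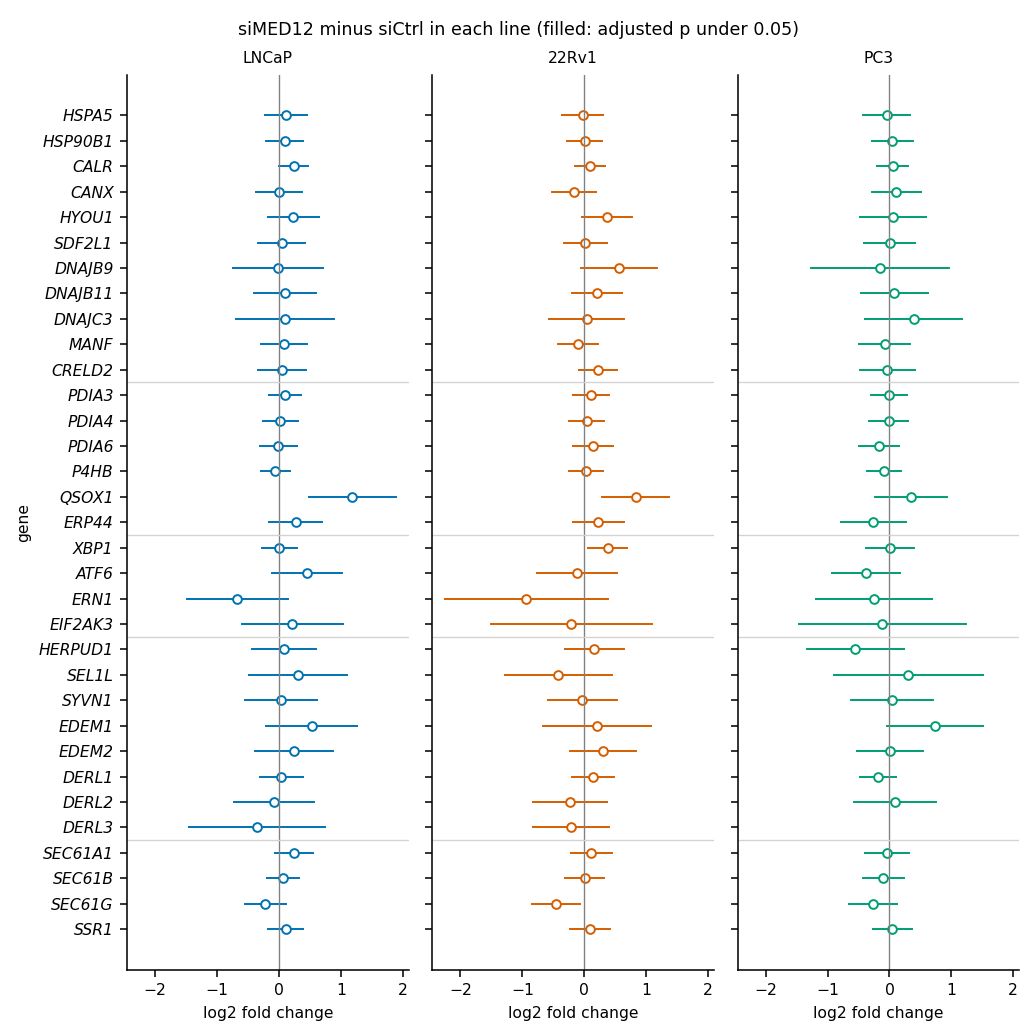
Log2 fold change from siCtrl to siMED12 in each line (x axis) for each gene (rows), with its 95% interval as a line. No point is filled, since no gene passed an adjusted p of 0.05 in a single line, and QSOX1 lies farthest to the right in LNCaP (1.18) and 22Rv1 (0.83).

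The effects of siMED12 on these genes were not shown to differ between lines. None of the members was called in the difference between 22Rv1 and LNCaP, PC3 and LNCaP or PC3 and 22Rv1 in edgeR, with smallest adjusted p-values of 0.666, 0.951 and 0.692, where 0.189%, 0.0284% and 0.0946% of all genes were called. At an unadjusted p under 0.05 there were 0, 1 and 0 members, against 8.28%, 5.02% and 9.16% of all genes, and DESeq2 and limma called 0 in each. For QSOX1 the 22Rv1 effect minus the LNCaP effect was -0.35 (95% interval -1.25 to 0.55) and the PC3 effect minus the LNCaP effect was -0.83 (95% interval -1.75 to 0.08). In 22Rv1 the median effect depended on single libraries, at 0.24 without siCtrl replicate 3 and -0.15 without siMED12 replicate 3. These 2 libraries share a number, and leaving out either leaves the other without its counterpart. Replicate 3 was the highest for 30 of the 33 members in siCtrl and above replicate 1 for 29 in siMED12.

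Further ER genes, in 8 lists of the same pathway, were counted after siMED12. In LNCaP 2 of the 125 tested genes of these lists were called (1.6%, against 0.416% of all genes), both lower. ERO1A, the oxidase that recharges the disulfide isomerases, had 84.5, 100.2 and 89.0 CPM in siCtrl and 54.6, 29.4 and 57.5 CPM in siMED12 (-0.94 ± 0.20, adjusted p = 0.0158). DDIT3, which encodes the UPR transcription factor CHOP, had 46.4, 96.0 and 113 CPM in siCtrl and 44.8, 33.4 and 28.7 CPM in siMED12 (-1.32 ± 0.29, adjusted p = 0.0259), below every control. In 22Rv1 the pro-apoptotic BBC3 was the one call (0.8%, against 1.84% of all genes), with 154, 130.4 and 95.0 CPM against 82.7 and 52.6 CPM (-0.88 ± 0.22, adjusted p = 0.0260). In PC3 there were 0 calls, as among all genes. ERO1A was also the one gene of these lists, and of the members, whose effect differed between lines, by 1.34 ± 0.30 in 22Rv1 minus LNCaP (adjusted p = 0.0471).

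Between siCtrl groups of 22Rv1 and LNCaP 36 of the 125 genes of these lists were higher in 22Rv1 and 26 lower, against 19 and 3 of the 33 members. In all 49.6% of the 125 were called, near the 43.2% of all genes (22% higher and 21.2% lower). The counts by list are therefore descriptive. Of the further disulfide and redox enzymes 2 of 14 were higher and 3 lower, with PDIA2 (2.83) and TMX4 (0.60) against TMX2 (-0.95) and ERO1A (-0.81). PDIA2 had 0, 4.30 and 2.12 CPM in LNCaP and 18.2, 20.1 and 12.8 CPM in 22Rv1. It passed the filter on low counts only through 22Rv1, so its call gives no separate support. Of the further chaperones and prolyl isomerases 2 of 11 were higher and 5 lower. The collagen chaperone SERPINH1 had 1.66, 0 and 0 CPM in LNCaP, 22.1, 33.4 and 8.98 CPM in 22Rv1 and 147, 143 and 146 CPM in PC3, and PPIB was 0.53 higher in 22Rv1, while the prolyl isomerases FKBP11 (-3.32) and FKBP9 (-2.34) were lower. FKBP11 had 67.9, 40.1 and 40.3 CPM in LNCaP and 6.51, 8.36 and 0 CPM in 22Rv1, and passed the filter only through LNCaP. FKBP9 had 5.21, 3.34 and 2.57 CPM in 22Rv1. Both folds thus rest on 22Rv1 levels near the limit of counting. Of the glycan-processing genes MOGS was higher (2.09) and LMAN1 (-1.65) and MAN1B1 (-0.83) were lower, of 10 tested.

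Oligosaccharyltransferase genes, which attach N-glycans to nascent chains, were higher in 5 of 11 and lower in 2, with TUSC3 (1.92) and DDOST (1.45) against OST4 (-0.46) and DAD1 (-0.39). For these lists too, the share among all genes was 22% higher and 21.2% lower. Of 20 further translocon, signal peptidase and targeting genes 8 were higher and 4 lower, with SPCS2 (1.45) and SSR2 (1.34) against SEC63 (-1.13) and SSR3 (-1.09). Of 18 further ERAD genes 6 were higher and 2 lower, with SELENOK (1.23) among the higher, and UBXN4 (-1.23) and HM13 (-0.44) the lower. Of 17 further UPR transducers and regulators 5 were higher and 4 lower, with PPP1R15A (1.89) and BBC3 (1.76) against CREB3L4 (-1.99) and WFS1 (-1.14), and of 24 ER to Golgi carriers 7 were higher and 4 lower, with TMED9 (1.53) and KDELR1 (1.00) against SAR1B (-1.04) and SEC24A (-0.89). The list medians ran from -0.74 for the further chaperones and prolyl isomerases to 0.38 for the oligosaccharyltransferase genes, against 1.39 for the 11 chaperones and lectins among the members.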

How the data were processed

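Total RNA of spheroids was made into BRB-seq libraries. Per the labels and the methods of the study, the authors aligned and counted reads with STARsolo (version not given in the sources used here) on GRCh38.p13 with Gencode release 43. The deposited counts per gene are whole tags, and the deposited log2 CPM values were recomputed from them (edgeR filter with a minimum count of 10 and total of 15, TMM scaling, prior count 2) to within 5e-14. How tags that match several loci, such as pseudogene copies of HSP90B1 and PDIA3, were assigned is not given in the sources used here. The replicate numbers come from the labels. The labels do not say whether replicates were separate cultures. The study's methods give 3 or more biological replicates per experiment unless noted otherwise, while siMED12 has 2 libraries here in 22Rv1 and in PC3. The p-values measure the spread between these libraries. Coordinates are from Gencode 44 on GRCh38, and promoters from RefSeq on GRCh38.p14.

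Levels are CPM on TMM-scaled library sizes. Groups were compared in 1 fit of all 6 group means with edgeR 4.0.16 (glmQLFit with legacy set to false, glmQLFTest, 2-sided), with Benjamini-Hochberg adjustment over all 10566 genes and a threshold of 0.05. DESeq2 1.42.0 and limma 3.58.1 (trend, on the deposited log2 CPM) were alternatives, run in R 4.3.3. The test was tested on simulated data: of 100 genes changed by 1 log2 unit in the LNCaP comparison 76% were recovered among 10249 genes, and of 100 changed by 2 units 100%. In 22Rv1 and in PC3 the shares were 74% and 99%. The changed genes had at least 20 CPM in siCtrl of every line. Their spread followed the trend over level, and no replicate effect was simulated. The shares therefore do not cover members under 20 CPM and may be too high for the others. In LNCaP the 3 same-numbered pairs of siCtrl and siMED12 libraries deviated together (r = 0.177, 0.132 and 0.135 over 6720 genes), so the blocked value of QSOX1 is given beside its result.

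The members and lists were chosen with earlier results of these data known. Full values are given for members past the threshold in a siMED12 comparison, then the 3 smallest unadjusted p-values per line, and between lines the 3 called members of each sign with the largest fold and a mean of at least 20 CPM. Of the further lists, called genes are named where there were up to 4 and otherwise 2 of each sign, except for an item that is not reported here. Other members given with values were picked with their values known. The limit of a count of 0 is 3 counts and covers counting error only.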

Additional observations from a re-analysis of the deposited data

How the results depend on the processing

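Over the alternative settings (RLE scaling, DESeq2, limma, 2 other filters, the replicate block, subtraction of carried-over counts, only the lines compared, the legacy form of the edgeR test, which was added after seeing the data, and leaving out single libraries) 41 of the 56 calls of a member held in every setting run. The fit of only the lines compared does not apply to the mean effect, since that effect uses all lines. With all genes of at least 1 count, 1 member (QSOX1) was called in LNCaP and 1 in 22Rv1 after siMED12, in place of 0. With limma 0 members were called in the mean effect, in place of 1.

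Leaving out single libraries, the members called after siMED12 were 0 to 1 in LNCaP (1 without siMED12 replicate 1), 0 in 22Rv1 and PC3, and 0 to 1 in the mean effect. Between siCtrl groups they were 18 to 23 (22Rv1 and LNCaP), 10 to 15 (PC3 and LNCaP) and 18 to 22 (PC3 and 22Rv1). The median log2 fold change of the members ran from -0.148 to 0.243 in 22Rv1 after siMED12, from -0.198 to 0.140 in the difference of effects between 22Rv1 and LNCaP, from -0.263 to 0.000496 in that between PC3 and 22Rv1, from 0.434 to 0.815 between 22Rv1 and LNCaP siCtrl and from -0.784 to -0.185 between PC3 and 22Rv1 siCtrl. In each of these ranges of the median one end came from leaving out 22Rv1 siCtrl replicate 3 and the other from leaving out 22Rv1 siCtrl replicate 1 or siMED12 replicate 3. EDEM1 in PC3 ran from -0.00559 (a reversed sign) without siMED12 replicate 1 to 1.09 without siMED12 replicate 3. Where a group was left with 1 library, that library was assumed to vary like the others.

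With the replicate block, 1 member was called in LNCaP after siMED12 (QSOX1), 0 in 22Rv1 and PC3 and 1 in the mean effect, and 25, 17 and 23 between the siCtrl groups in place of 22, 12 and 21. The block gives each replicate of each line its own fixed term. Between lines it therefore leaves the spread between replicates out of the error, and siMED12 libraries enter the estimate. The larger counts between siCtrl groups are thus no stronger evidence. In 22Rv1 and PC3 only 2 pairs share a number (r = 0.19 and 0.253, and 0.117 and 0.0787). With 2 siMED12 libraries the deviations from their mean mirror each other, so these values cannot settle whether libraries are paired. The 22Rv1 values were above those of LNCaP (0.177, 0.132 and 0.135). The main fit leaves the replicate number out. DESeq2 gave no adjusted p for 0 to 8 members per comparison, and these were left out. Depth limits the genes under about 16 counts per library, such as ERN1 and EIF2AK3.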
